A study of Homo sapiens with 6 samples.

Results

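The mitosis, kinetochore and spindle checkpoint genes are 54 genes chosen by symbol for their known role in building and checking the mitotic spindle. All 54 had a row in the deposited expression table of 18780 genes, and the rule that names them uses no measured value. The list was still chosen with earlier results of these data known, so it was not tested as a set. The table holds 6 libraries of RNA from PC-3, an established line derived from human prostate cancer, cultured in DMEM/F12 with fetal bovine serum. In 3 libraries the cells had received trans-Gnetin H (TGH), a resveratrol trimer, at 2.5 µM for 24 h. The other 3 libraries came from cells given its solvent DMSO. By its title the study asks about glucose deprivation of advanced prostate cancer cells by this compound. The labels give no genetic change and the same cell line and medium for both groups, so the agent is the only difference they name. Nothing in the labels says that replicates were separate cultures. The p-values below therefore measure the spread between these libraries, which may be technical.

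Cells divide by condensing their chromosomes, attaching each one to spindle microtubules through the kinetochore, and separating the copies once every attachment is in place. Cyclin B with CDK1 and the Polo and Aurora kinases start and drive this sequence. The spindle checkpoint holds back the anaphase-promoting complex (APC/C), a ubiquitin ligase, until all kinetochores are attached. Most genes of this machinery are known to be transcribed in late S phase, G2 and mitosis of cycling cells. In resting cells the DREAM complex, built on the MuvB core, represses many of them through a promoter sequence called the cell cycle genes homology region (CHR). In cycling cells MuvB works with B-MYB and FOXM1 instead, and the factor NF-Y binds CCAAT boxes of the same promoters.

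Stretches of 8 promoters are shown because they hold, or lack, those promoter sequences in genes that the results below turn on. Each runs 5′ to 3′ along the gene over the 120 bases before its RefSeq start. Capitals mark the CHR letters TTTGAA or TTTAAA and the CCAAT box, on either strand, so that TTCAAA and ATTGG are the same motifs read backwards.
PLK1: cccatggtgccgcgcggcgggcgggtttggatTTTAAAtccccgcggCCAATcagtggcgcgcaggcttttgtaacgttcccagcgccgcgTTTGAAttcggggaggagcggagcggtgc
CCNB1: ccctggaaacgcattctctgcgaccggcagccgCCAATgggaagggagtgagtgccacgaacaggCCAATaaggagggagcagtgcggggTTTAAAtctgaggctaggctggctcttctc
CCNB2: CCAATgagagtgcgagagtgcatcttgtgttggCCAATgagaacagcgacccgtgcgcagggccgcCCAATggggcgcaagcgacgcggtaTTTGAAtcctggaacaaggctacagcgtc
MKI67: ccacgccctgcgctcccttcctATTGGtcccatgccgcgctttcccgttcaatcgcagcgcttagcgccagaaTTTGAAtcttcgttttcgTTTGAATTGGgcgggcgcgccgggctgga
CDC20: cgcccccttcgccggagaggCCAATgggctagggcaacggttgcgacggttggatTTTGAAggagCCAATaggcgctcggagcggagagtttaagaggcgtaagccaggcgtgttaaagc
ZWINT: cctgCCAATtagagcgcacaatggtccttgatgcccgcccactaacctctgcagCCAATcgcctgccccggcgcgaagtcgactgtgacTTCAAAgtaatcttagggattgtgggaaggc
FZR1: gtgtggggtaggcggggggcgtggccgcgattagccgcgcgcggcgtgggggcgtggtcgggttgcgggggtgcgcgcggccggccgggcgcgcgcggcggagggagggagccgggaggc
SPC24: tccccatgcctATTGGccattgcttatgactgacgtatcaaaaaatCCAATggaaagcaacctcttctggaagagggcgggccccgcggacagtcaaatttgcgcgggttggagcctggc

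In the RefSeq table, on build GRCh38.p14, these stretches lie at chr16:23678769-23678888 (plus strand, PLK1), chr5:69167030-69167149 (plus strand, CCNB1), chr15:59105026-59105145 (plus strand, CCNB2), chr10:128126424-128126543 (minus strand, MKI67), chr1:43358861-43358980 (plus strand, CDC20), chr10:56361260-56361379 (minus strand, ZWINT), chr19:3506191-3506310 (plus strand, FZR1) and chr19:11155783-11155902 (minus strand, SPC24). The files themselves name genes by symbol alone and were made on hg19, so no position was carried between builds. In PLK1 and CCNB2 a TTTGAA begins at position -29, where -1 is the base just before the start and the leftmost base of the motif is counted, and in CCNB1 a TTTAAA begins at -30. MKI67 has TTTGAA at -47 and -29, and the later of these overlaps a reversed CCAAT box at -24. ZWINT holds the reversed form at -31, and CDC20 holds TTTGAA at -65. In CCNB2 the CCAAT boxes at -120, -87 and -54 are spaced 33 bases apart. FZR1 shows neither motif in this stretch, but it has a TTTGAA farther from the start, at -226, and so is counted below among the promoters with a CHR. SPC24 shows CCAAT boxes at -109 and -74 but no CHR letters.

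A RefSeq promoter of 250 bases before to 50 after the start was matched for 43 of the 54 genes (79.6%). No entry was matched for AURKA, BIRC5, BUB3, TTK, UBE2C, CENPH, CENPM, KNTC1, TPX2, RACGAP1 and FOXM1. Of the genes tested below 73.2% had an entry, also under 80%, so the shares of tested genes cover only part of them. Since fewer than 80% of the list had an entry, the shares that follow are void as a check of the whole list and describe the 43 alone. TTTGAA or TTTAAA was present in 31 of them (72.1%), against 24.3% of all 27305 promoters and 14.9% of the 8794 that matched a gene tested below. Taken singly, TTTGAA was present in 28 (65.1%, against 15.4% of all promoters and 9.15% of those of tested genes) and TTTAAA in 10 (23.3%, against 12.3% and 7.10%). CCAAT was present in 30 (69.8%, against 35.7% and 36.9%), and 22 promoters held 2 or more of them (51.2%, against 11.3% and 14.1%). The forkhead core TAAACA, which FOXM1 can bind, was present in 4 (9.30%), a share below that of all promoters (12.4%) and above that of tested genes (6.53%). Within the 50 bases before the start, a window chosen after the positions had been seen, 18 of the 43 held a CHR (41.9%, against 4.87% of all promoters and 2.80% of those of tested genes). A match is a description of letters and says nothing of binding in these cells.

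**Figure D1:**
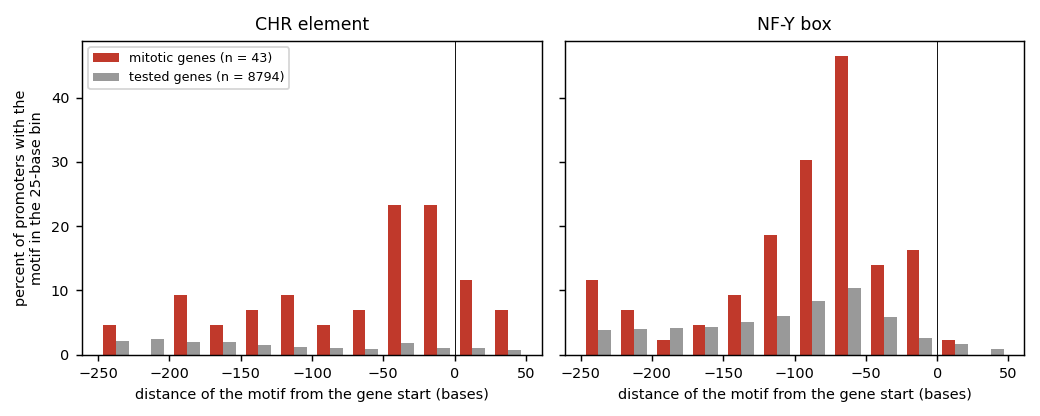
Distance of the CHR (left) and of the CCAAT box, which NF-Y binds (right), from the gene start, as the percent of promoters with the motif in each bin of 25 bases. Red bars are the 43 mitotic genes with a promoter entry and grey bars the 8794 tested genes with one; the red bars are tallest within 50 bases before the start for the CHR, and between 50 and 100 bases before it for the CCAAT box.

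Values were deposited as log2(TPM + 1), where the transcript abundance unit TPM scales reads by transcript length and library total. All 54 genes passed the minimum for testing, which was an average level of 1 TPM, and none was listed at 0 in any library. Between 1342 and 1530 genes of the table were at 0 in the TGH libraries and DMSO replicate 3, but 3074 and 3185 in DMSO replicates 1 and 2. The depth of the libraries is unknown, because TPM keeps no read totals, and its part in the results was not tested. The epithelial markers KRT8, KRT18, EPCAM and CDH1 were present in every library, and their sum was 1398 to 1421 TPM with DMSO and 1060 to 1068 TPM with TGH. The keratins KRT8 and KRT18 and the adhesion molecule EPCAM were called lower with TGH, by differences of -0.51, -0.45 and -0.13 (limma adjusted p = 6.7e-06, 5.5e-05 and 0.00498). CDH1, E-cadherin, had 0.07 and was not called (limma adjusted p = 0.0787). The part of this shift in the results below was not tested. Immune markers summed to at most 0.373 TPM in any library, endothelial markers to at most 0.313 TPM and fibroblast markers to at most 4.78 TPM, most of it COL1A1.

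With TGH the mRNA of nearly all these genes was lower. Of the 54 tested, 51 were lower with TGH, none was higher and 3 were not called (limma with Benjamini-Hochberg adjustment over 12018 genes, adjusted p under 0.05). At an unadjusted p under 0.05 the counts were the same, 51 lower and 0 higher. Of all genes tested, 26.3% were called lower, 28.9% higher and 55.2% in either direction. The TGH libraries lay below all DMSO libraries for 51 of the 54, and above them for none, against 30.8% and 33.6% of all genes. The median difference of the list was -0.70 on the log2(TPM + 1) scale, against 0.02 for all genes. Without DMSO replicates 1 and 2, with DMSO replicate 3 as the only control, the median was -0.71 and 51 were called lower. Such a fit can estimate variation between replicates only within the TGH group, and it assumes that the lone control varies likewise, so its calls are no replicate check of the controls. In bulk RNA, fewer cells in mitosis and less RNA in each cell cannot be told apart.

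The sum over the 54 genes was 3355, 3361 and 3331 TPM in DMSO replicates 1 to 3 and 2049, 2007 and 2027 TPM in TGH replicates 1 to 3. All 3 TGH libraries lay close together and far below the controls. As a share of all listed TPM, the 54 genes took 0.655% to 0.669% with DMSO and 0.391% to 0.397% with TGH. The listed total was 502380 to 509407 TPM with DMSO and 507945 to 518870 TPM with TGH, so these shares refer to the listed genes only. Replicates of a gene differed little, with a median coefficient of variation of 2.90% with DMSO and 2.29% with TGH. The widest were CENPK with DMSO, at 13.3%, and CENPH with TGH, at 8.51%. On the log2 scale 42 of the 54 were lower by at least 0.5, against 3.64% of all genes, and 7 were at least 2-fold lower, against 0.466%. With a pseudocount of 5 in place of 1, which compresses differences, PLK1 alone was at least 2-fold lower. Among the 20 tested genes with the most negative difference 0 were from this list, and among the 50 most negative 4. Among the 100 most negative 18 were from this list, among the 200 most negative 30, and among the 500 most negative 43. The list makes up 54 of the 12018 genes tested.

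**Figure D2:**
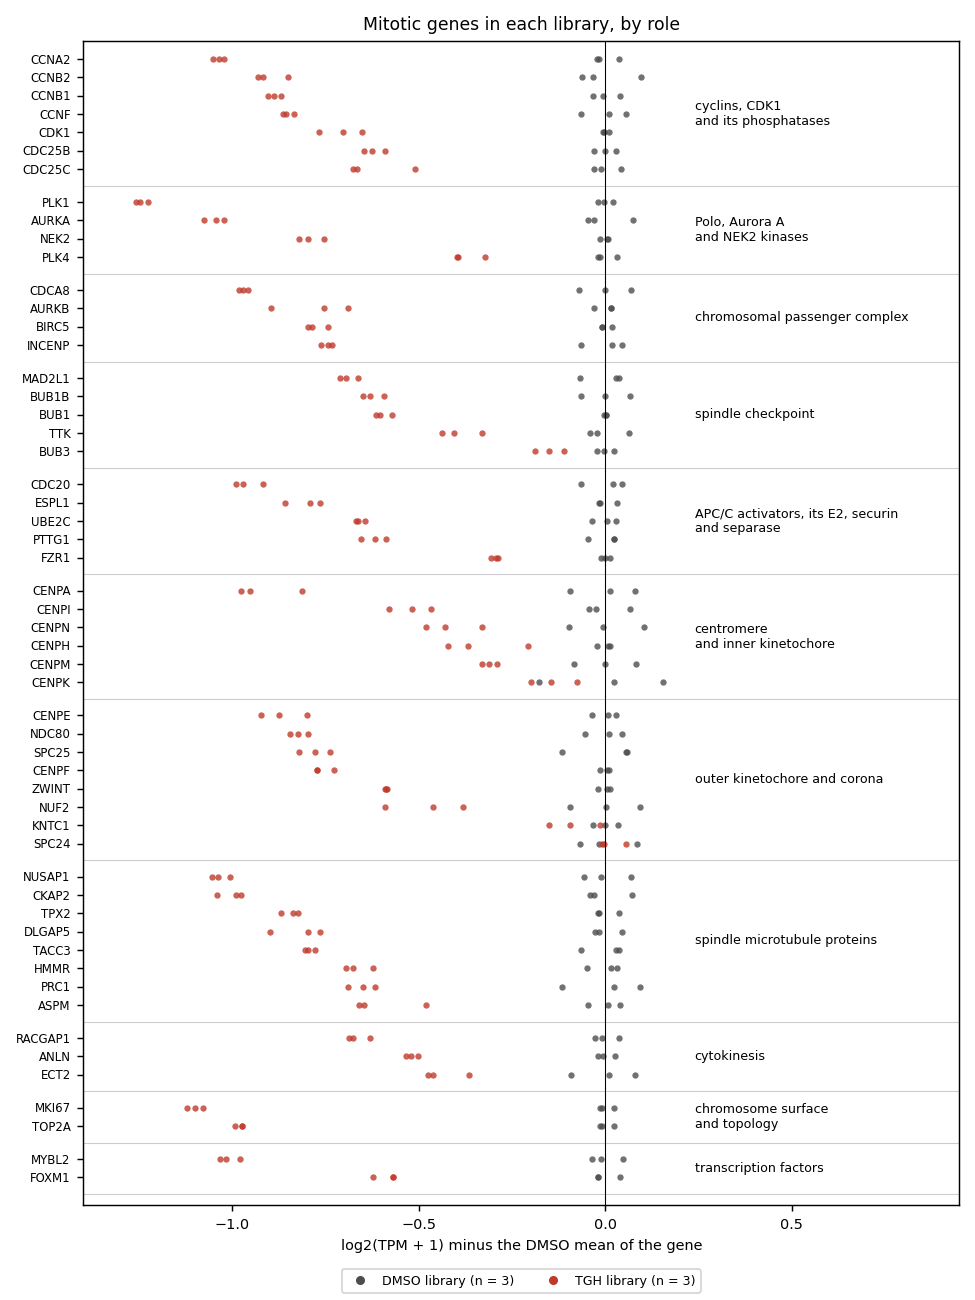
Each point is 1 library, placed by its log2(TPM + 1) value minus the DMSO mean of that gene (horizontal axis), for the 54 genes grouped by role (vertical axis). Grey DMSO points lie around 0 and red TGH points lie to their left for every gene but CENPK, KNTC1 and SPC24, whose groups overlap.

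The cyclins, CDK1 and its activating phosphatases fell together. All 7 were called lower, with a median difference of -0.85. Beside this count and those of the role groups below stands the share of all genes called lower, 26.3%. CCNA2, cyclin A, which acts with CDK kinases in S phase and G2, was at 35.4, 35.5 and 36.9 TPM with DMSO and 16.8, 17.02 and 17.2 TPM with TGH, here and below in the order of replicates 1 to 3. The groups lay far apart, and the difference was -1.04 (SE 0.030, limma adjusted p = 2.2e-06). CCNB2, a B-type cyclin, was at 39.6, 44.4 and 40.5 TPM with DMSO and 22.5, 21.3 and 21.5 TPM with TGH. CCNB1, the main mitotic cyclin, was at 108, 103 and 105 TPM with DMSO and 56.5, 57.3 and 55.9 TPM with TGH. In both cyclin B genes the lowest control stood well above the highest TGH library, with differences of -0.90 and -0.89. CDK1, the kinase that the B cyclins activate, was at 185, 185 and 186 TPM with DMSO and 118, 108 and 113 TPM with TGH, and 61.05% of its DMSO mean was left. CDC25C, a phosphatase that removes inhibitory phosphates from CDK1, was at 7.86, 7.99 and 8.32 TPM with DMSO and 4.67, 5.36 and 4.71 TPM with TGH. Its difference was the smallest of the group on the log2(TPM + 1) scale only. In TPM 60.98% of its DMSO mean was left, against 63.94% for CDC25B. The higher TGH replicate 2 of CDC25C still lay below every control (difference -0.62, limma adjusted p = 0.00019). CCNF, cyclin F, a substrate receptor of an SCF ubiquitin ligase, fell by 0.85, and CDC25B, a related phosphatase, fell by 0.62.

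Among the kinases that mature centrosomes and drive mitotic entry, PLK1 had the largest fall of all 54 genes. PLK1, a Polo kinase that acts from mitotic entry to cytokinesis, was at 70.5, 72.5 and 71.3 TPM with DMSO and 29.3, 29.5 and 29.98 TPM with TGH. The TGH mean was 41.4% of the DMSO mean, and the difference was -1.24 (SE 0.025, limma adjusted p = 6.3e-07). Only 0.25% of all tested genes had a more negative difference. AURKA, the Aurora kinase of centrosomes and spindle poles, was at 98.5, 106 and 97.5 TPM with DMSO and 48.2, 47.2 and 49.03 TPM with TGH. NEK2, which loosens the link between centrosomes, fell by 0.79, to 56.3% of its DMSO mean. PLK4, the kinase that starts centriole duplication, was at 9.57, 9.91 and 9.53 TPM with DMSO and 7.10, 7.11 and 7.53 TPM with TGH. Its groups did not overlap, yet its difference of -0.37 (limma adjusted p = 0.00036) was the smallest of these 4 kinases.

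All 4 subunits of the chromosomal passenger complex were called lower, within a narrow range from -0.97 to -0.75. This complex sits at centromeres, destabilises wrong attachments and later moves to the spindle midzone. CDCA8, borealin, which helps place the complex, was at 50.5, 48.03 and 45.8 TPM with DMSO and 24.00, 23.8 and 24.3 TPM with TGH. AURKB, its Aurora kinase, was at 51.2, 49.6 and 51.2 TPM with DMSO and 31.1, 26.7 and 29.6 TPM with TGH. INCENP, the scaffold that activates the kinase, was at 30.4, 28.6 and 30.97 TPM with DMSO and 17.5, 17.3 and 17.6 TPM with TGH. No TGH library reached any control in these genes, and AURKB had the wider spread, with TGH replicate 2 lowest. BIRC5, survivin, fell by 0.78, from a mean of 168 ± 1.90 to 98.02 ± 1.97 TPM (SD, n = 3 each).

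All 5 spindle checkpoint genes were called lower, with differences from -0.69 to -0.15. MAD2L1, whose product binds and blocks CDC20, was at 68.4, 68.8 and 63.9 TPM with DMSO and 41.9, 40.5 and 41.00 TPM with TGH. BUB1B, the BUBR1 subunit of the inhibitory complex, was at 41.04, 37.4 and 39.2 TPM with DMSO and 24.6, 24.9 and 25.6 TPM with TGH. The TGH values of both genes were grouped far below the controls, with differences of -0.69 and -0.62. BUB1, a kinase that recruits the checkpoint to kinetochores, fell by 0.60, and TTK, the kinase MPS1 that starts the signal, fell by 0.39. BUB3, the partner that BUB1 and BUBR1 share, was at 113, 115 and 111 TPM with DMSO and 105, 99.1 and 102 TPM with TGH. Its TGH libraries lay just below the controls, with a difference of -0.15 (SE 0.027, limma adjusted p = 0.00353), and 90.1% of the DMSO mean was left.

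The genes that open and carry out anaphase were all called lower, 5 of 5, with a median of -0.66. CDC20, which activates the APC/C at the end of the checkpoint, was at 162, 172 and 175 TPM with DMSO and 85.9, 84.7 and 89.1 TPM with TGH. ESPL1, separase, the protease that cuts cohesin, was at 12.6, 12.6 and 13.1 TPM with DMSO and 6.58, 7.09 and 6.94 TPM with TGH. In both genes about as much was left, 51.1% and 53.9% of the DMSO mean. FZR1, or CDH1, activates the APC/C in late mitosis and G1. It was at 15.4, 15.3 and 15.6 TPM with DMSO and 12.4, 12.3 and 12.5 TPM with TGH, with tight replicates, no overlap and a smaller difference of -0.30 (SE 0.029, limma adjusted p = 0.00026). UBE2C, the ubiquitin-conjugating enzyme of the APC/C, had the highest level of the 54 genes, with 340.5 ± 7.64 TPM in the controls and 215 ± 1.92 TPM with TGH (SD, n = 3 each). PTTG1, securin, which restrains separase, fell by 0.62.

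The centromere and inner kinetochore genes had the smallest median fall of the role groups, -0.37, with 5 of 6 called lower. CENPA, the histone H3 variant that marks centromeres, was at 40.6, 35.8 and 38.7 TPM with DMSO and 21.3, 19.3 and 18.96 TPM with TGH. CENPI, a subunit of the constitutive centromere network, was at 12.04, 12.2 and 13.1 TPM with DMSO and 8.39, 7.98 and 8.73 TPM with TGH. CENPK, another subunit of that network, had the lowest mean of the list in the controls, though not with TGH, and was at 6.83, 5.22 and 6.14 TPM with DMSO and 5.68, 5.36 and 5.12 TPM with TGH. CENPA was far apart between groups (-0.91) and CENPI less so (-0.52), while for CENPK DMSO replicate 2 lay inside the TGH range. The difference of CENPK, -0.14 (SE 0.088), was not called (limma adjusted p = 0.217), but without DMSO replicate 2 it was -0.23 and was called (limma adjusted p = 0.028). The remaining network subunits CENPN, CENPH and CENPM fell by 0.41, 0.33 and 0.31.

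In the outer kinetochore, which grips microtubules, 6 of 8 genes were called lower and 2 were not called. CENPE, a kinesin motor of the kinetochore corona, was at 11.5, 12.1 and 11.9 TPM with DMSO and 6.36, 5.76 and 5.99 TPM with TGH. CENPF, a large coiled-coil protein of the same layer, was at 33.4, 33.6 and 32.98 TPM with DMSO and 19.7, 19.1 and 19.1 TPM with TGH. Both fell without overlap, by 0.87 and 0.76. The NDC80 complex, the microtubule-binding core, has the subunits NDC80, NUF2, SPC24 and SPC25. NDC80 was at 47.1, 46.01 and 43.9 TPM with DMSO and 24.97, 25.4 and 25.9 TPM with TGH. SPC25, which forms a dimer with SPC24, was at 32.3, 28.4 and 32.2 TPM with DMSO and 18.1, 17.1 and 17.6 TPM with TGH. SPC24 itself was at 19.2, 18.5 and 20.7 TPM with DMSO and 19.3, 20.2 and 19.4 TPM with TGH. NDC80 and SPC25 had TGH values far below the controls, with differences of -0.82 and -0.78, whereas the TGH values of SPC24 lay within the range of its controls. SPC24 had a difference of 0.01 (SE 0.047, limma adjusted p = 0.813), whose sign turned to negative with median scaling (-0.02), without DMSO replicate 2 (-0.02), without TGH replicate 2 (-0.01) and with DMSO replicate 3 as the only control (-0.07).

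NUF2, the dimer partner of NDC80, fell by 0.48, and ZWINT, which links the core to the checkpoint complex RZZ, fell by 0.59. KNTC1, the ROD subunit of RZZ, averaged 11.3 ± 0.294 TPM in the controls and 10.6 ± 0.560 TPM with TGH (SD, n = 3 each). TGH replicate 1 lay inside the control range, and the difference of -0.09 (SE 0.046) was not called (limma adjusted p = 0.151). The ratio of SPC24 to SPC25, taken up after the values had been seen and not tested, was 0.595, 0.650 and 0.643 with DMSO and 1.06, 1.19 and 1.10 with TGH. SPC24 was thus listed below its dimer partner in each control library and above it in each TGH library, on the TPM scale.

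**Figure D3:**
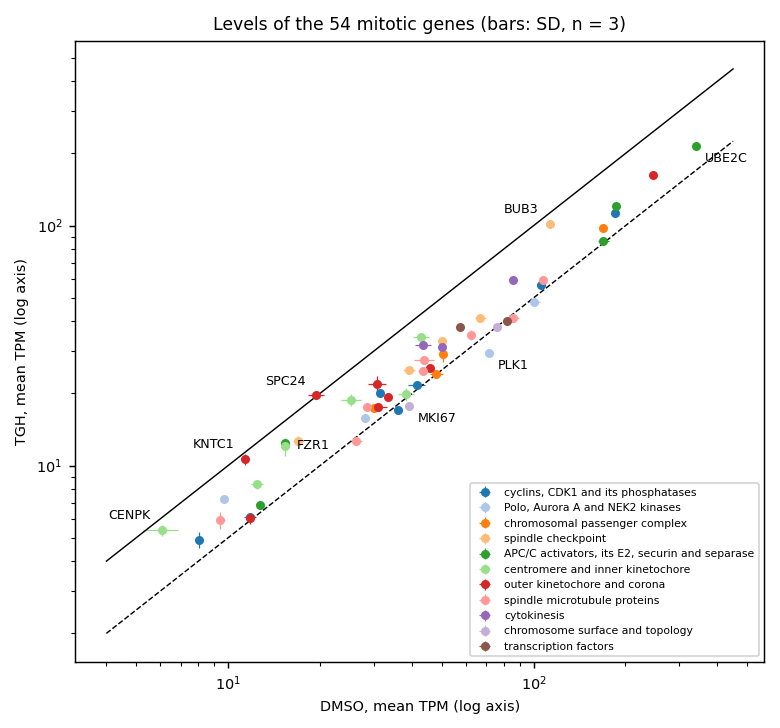
Mean TPM with TGH (vertical, log axis) against mean TPM with DMSO (horizontal, log axis) for the 54 genes, coloured by role, with bars of 1 SD (n = 3). The solid line marks equal levels and the dashed line a 2-fold fall; SPC24, KNTC1, CENPK and BUB3 lie nearest the solid line and PLK1 lies farthest below the dashed line.

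All 8 transcripts for proteins of the spindle microtubules were called lower, with a median of -0.81. NUSAP1, which bundles microtubules near chromosomes, was at 90.03, 82.4 and 84.99 TPM with DMSO and 42.1, 41.2 and 40.7 TPM with TGH. CKAP2, a microtubule stabiliser, was at 25.7, 27.7 and 25.5 TPM with DMSO and 12.7, 12.9 and 12.3 TPM with TGH. Less than 50% of the DMSO mean was left for both, 48.2% and 47.97%. TPX2, which activates AURKA and nucleates microtubules, was at 106, 111 and 107 TPM with DMSO and 59.9, 58.6 and 60.4 TPM with TGH. ASPM, a protein of the spindle poles, was at 9.72, 9.49 and 9.10 TPM with DMSO and 6.47, 5.65 and 5.61 TPM with TGH. TPX2 fell by 0.84. ASPM, with TGH replicate 1 above the other TGH libraries, had a difference of -0.60 (limma adjusted p = 0.00025). That was the smallest of the set on the log2(TPM + 1) scale only. In TPM 62.65% of the DMSO mean of ASPM was left, against 62.71% for PRC1. DLGAP5 (HURP), TACC3, HMMR and PRC1, which stabilise or crosslink spindle fibres, fell by 0.82, 0.79, 0.66 and 0.65.

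All 3 cytokinesis genes were called lower, with a median of -0.52. ANLN, anillin, which organises the contractile ring, was at 86.97, 85.1 and 84.3 TPM with DMSO and 60.1, 58.7 and 59.2 TPM with TGH. ECT2, which activates the GTPase RhoA at the cell equator, was at 46.01, 40.7 and 43.8 TPM with DMSO and 33.5, 30.97 and 31.2 TPM with TGH. RACGAP1, a centralspindlin subunit that recruits ECT2, was at 49.1, 51.4 and 49.7 TPM with DMSO and 31.9, 30.9 and 30.7 TPM with TGH. The groups were apart in all 3 genes, and the differences were -0.52, -0.44 and -0.67, the last with 62.3% of the DMSO mean left.

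MKI67, the Ki-67 protein that coats mitotic chromosomes and marks cycling cells, was at 38.9, 39.9 and 38.7 TPM with DMSO and 17.7, 17.5 and 18.02 TPM with TGH. TOP2A, the topoisomerase that untangles sister chromatids, was at 75.2, 77.1 and 74.98 TPM with DMSO and 38.1, 37.6 and 38.1 TPM with TGH. Every TGH library had about equal values, and 45.3% and 50.02% of the DMSO means were left.

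Of the transcription factors that drive this gene set, FOXM1 was at 56.7, 59.2 and 56.7 TPM with DMSO and 37.01, 38.5 and 38.5 TPM with TGH. MYBL2, which encodes B-MYB, was at 84.3, 79.5 and 80.99 TPM with DMSO and 39.4, 40.9 and 39.8 TPM with TGH. Both were called lower without overlap, MYBL2 by a larger amount (-1.01, limma adjusted p = 2.5e-06) than FOXM1 (-0.59, limma adjusted p = 1.8e-05). That difference between the factors was not tested.

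Partner genes were compared as ratios of TPM within each library, for 8 pairs, with a two-sided exact permutation test that cannot go below p = 0.10 with 3 libraries against 3. The ratio of CDC20 to FZR1, the early and the late APC/C activator, was 10.5, 11.2 and 11.2 with DMSO and 6.94, 6.90 and 7.15 with TGH. All TGH ratios were lower, by 0.65 on the log2 scale (exact permutation p = 0.1, adjusted p = 0.16 over 8 ratios). For BUB1B to BUB3 the ratio was 0.364, 0.326 and 0.352 with DMSO and 0.235, 0.252 and 0.252 with TGH, again without overlap. CCNB1 to CDK1 had a log2 ratio lower by 0.19 with TGH, while TPX2 to AURKA and CENPF to CENPE had log2 ratios higher by 0.21 and 0.18. With a pseudocount of 5 the difference of the log2 ratio CENPF/CENPE turned to -0.05. These 5 ratios had no overlap between groups and all had the smallest p the design allows, which any ratio without overlap gets. The pairs were chosen with earlier results of these data known. Of single genes tested, the TGH libraries lay below all DMSO libraries for 30.8% and above them for 33.6%. No such share was taken over ratios of other genes.

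Other partners had overlapping ratios. INCENP to AURKB was 0.593, 0.577 and 0.605 with DMSO and 0.564, 0.645 and 0.595 with TGH (exact permutation p = 0.8, adjusted p = 0.9). SPC25 to NDC80 differed by 0.03 on the log2 scale (exact permutation p = 0.9, adjusted p = 0.9). CCNB1 to CCNB2 differed by 0.03 too (exact permutation p = 0.8, adjusted p = 0.9). In these 3 pairs the group means differed by less than the larger SD between replicates. With 3 libraries a group, a p of this size does not show that the ratios are equal.

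**Figure D4:**
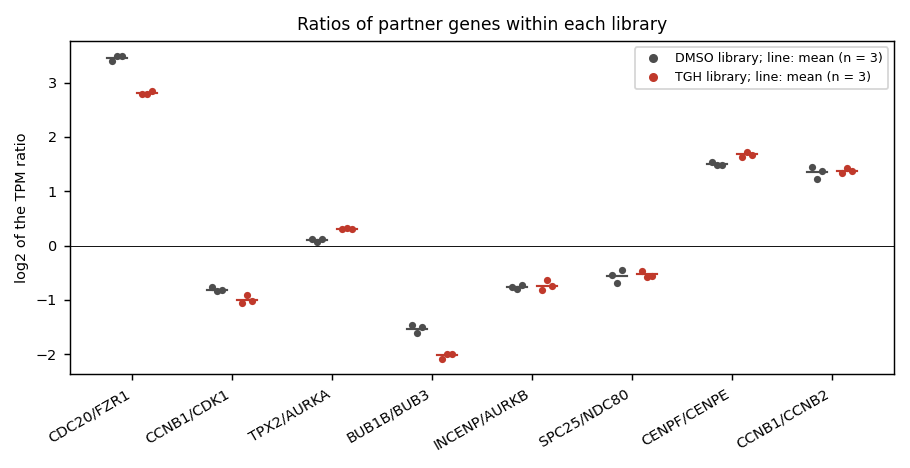
The log2 of the TPM ratio of partner genes (vertical axis) in each library, for the 8 pairs on the horizontal axis; points are libraries and lines are group means (n = 3). CDC20/FZR1 and BUB1B/BUB3 show the widest gaps between grey DMSO and red TGH points, while INCENP/AURKB, SPC25/NDC80 and CCNB1/CCNB2 overlap.

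Of 24 other kinetochore and centromere genes, 17 were lower, 3 were higher and 4 were not called, against 26.3% lower and 28.9% higher of all genes, with a median of -0.39. HJURP, the chaperone that loads CENPA, fell by 0.81 and CASC5 (KNL1), the platform of the checkpoint proteins, fell by 0.80. CENPL, of the constitutive network, fell by 0.62 and SKA2, of a complex that tracks microtubules, fell by 0.52. The 3 higher genes, named after their values were seen, were MIS12, which joins the inner to the outer kinetochore, at 0.32, CENPP at 0.30 and CENPC1, which binds CENPA nucleosomes, at 0.27. The calls of CENPP and CENPC1 were lost under quantile normalization (limma adjusted p = 0.102 and 0.0619) and without TGH replicate 1 (limma adjusted p = 0.0581 and 0.0553). That of CENPC1 was also lost without DMSO replicate 2, TGH replicate 2 or TGH replicate 3 (limma adjusted p = 0.0521, 0.0601 and 0.0557), and that of CENPP with DMSO replicate 3 as the only control, where the TGH libraries alone give the spread (limma adjusted p = 0.0936).

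Of 16 subunits and regulators of the APC/C, 7 were lower, 5 were higher and 4 were not called, against 26.3% lower and 28.9% higher of all genes. The median was -0.02, against 0.02 for all genes, and the share called higher was near that of all genes. ANAPC11, its RING subunit, rose by 0.34, while ANAPC1 and ANAPC15 fell by 0.34 and 0.46. FBXO5 (EMI1), an inhibitor of the complex, fell by 0.79. With DMSO replicate 3 as the only control, and the spread from the TGH libraries alone, 3 in place of 5 were called higher.

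Of 13 other regulators of mitotic entry 10 were lower and 0 were higher by limma, against 26.3% lower and 28.9% higher of all genes. At an unadjusted p under 0.05 the count higher was 0 too, and the median of these 13 was -0.39. Under quantile normalization 2 of them were called higher. GTSE1, a microtubule-binding protein of G2, fell by 0.82, CDC25A by 0.54, and ENSA and ARPP19, which inhibit the phosphatase PP2A in mitosis, by 0.49 and 0.39. Of 7 other genes of checkpoint and cohesion protection, 5 were lower and 0 higher by limma, against 26.3% lower and 28.9% higher of all genes. At an unadjusted p under 0.05 the count higher was also 0, though 1 of the 7 was called higher without DMSO replicate 1. SGOL2, shugoshin, which protects centromeric cohesin, fell by 0.70, CDCA5, sororin, by 0.59, GSG2, the histone kinase haspin, by 0.30 and TRIP13, which recycles MAD2, by 0.26.

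Of 16 augmin and other spindle genes 11 were lower and 0 higher by limma, against 26.3% lower and 28.9% higher of all genes. The count higher was 0 also at an unadjusted p under 0.05, and the median of these 16 was -0.38. FAM83D, which recruits casein kinase to the spindle, fell by 1.09, SPAG5 by 0.86, PSRC1 by 0.84 and KNSTRN, a kinetochore and spindle protein, by 0.69. Of 8 other cytokinesis genes 6 were lower and 1 was higher, against 26.3% lower and 28.9% higher of all genes. CIT, citron kinase, fell by 0.70 and CEP55, which recruits the abscission machinery, by 0.62, while RHOA and SEPT7 fell by 0.23 and 0.25. Of 12 centrosome and centriole genes 5 were lower, 3 were higher and 4 were not called, with a median of -0.06, against 26.3% lower, 28.9% higher and a median of 0.02 for all genes. STIL and SASS6, which build new centrioles with PLK4, fell by 0.35 and 0.33, NEDD1, which docks gamma-tubulin rings, fell by 0.24, and CETN2, centrin, rose by 0.24.

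Of 10 MuvB and DREAM subunits and partners 4 were lower, 2 were higher and 4 were not called, where 55.2% of all genes were called in either direction. The number called is near that share, and the median was -0.11, against 0.02 for all genes. TFDP1, the partner of E2F factors, fell by 0.52, LIN9, a subunit of the MuvB core, fell by 0.26 and E2F4 fell by 0.22. RBL2, the pocket protein p130 of DREAM, rose by 0.50. With DMSO replicate 3 as the only control, and the spread from the TGH libraries alone, 1 in place of 2 was called higher.

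**Figure D5:**
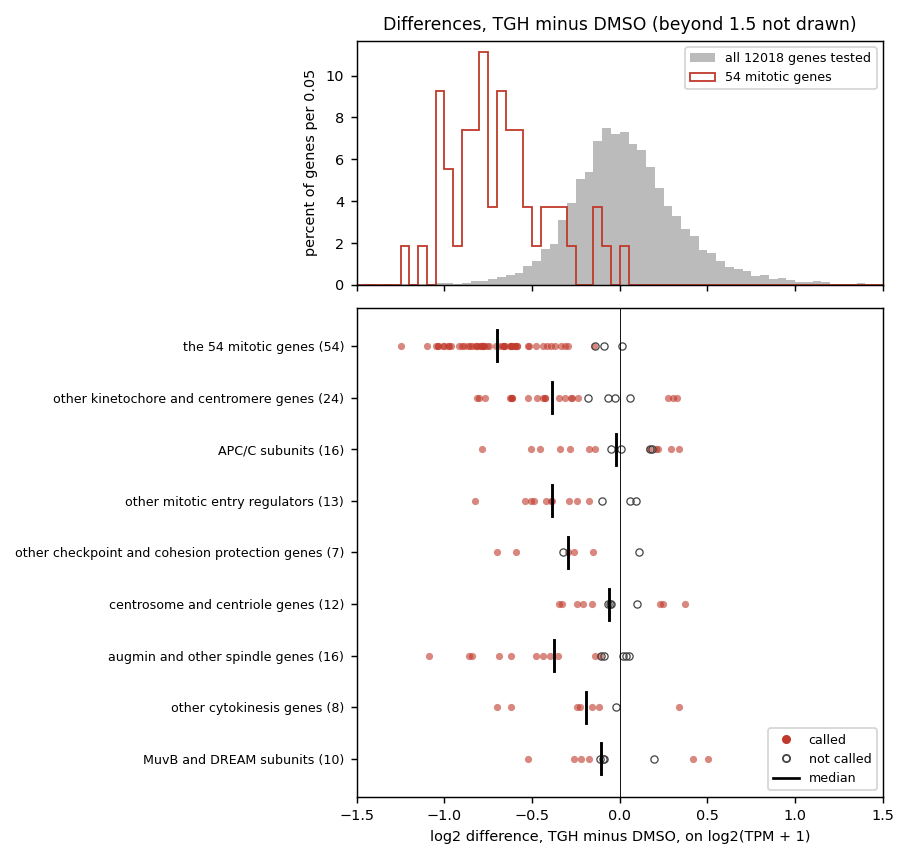
Top, the percent of genes in each bin of 0.05 by log2 difference between TGH and DMSO, for all 12018 genes tested (grey) and the 54 mitotic genes (red). Bottom, single genes of the 54 and of 8 surrounding lists (filled: called at an adjusted p under 0.05; open: not called; bar: median); the 54 genes have a median of -0.70, and the surrounding lists have medians from -0.39 to -0.02.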

How the data were processed

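RNA of 6 PC-3 libraries was sequenced after depletion of ribosomal RNA with a directional kit, per the labels' protocols. The authors deposited 1 table of log2(TPM + 1) values per gene symbol and library. Per the submitters' processing notes the build was hg19. For the aligner, quantifier and annotation no name is given in the sources used. TPM holds no read totals, so no counting interval can be given.

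Groups came from the sample titles. The 12018 genes averaging 1 TPM or more were compared on the deposited log2 values with limma 3.58.1 in R 4.3.3 (variances with a trend, two-sided, Benjamini-Hochberg adjustment, call at 0.05), a step tested on simulated data. Members, role groups, surrounding lists, ratios and alternatives were chosen with earlier results of these data known. Values of all 6 libraries are given for the 2 largest and the 1 smallest difference of each role group, for groups of 2 or 3 in full, and for the genes of the ratios. Of each surrounding list the 4 genes with the smallest p are named. Promoters came from RefSeq (GRCh38.p14). Alternatives were other pseudocounts, filters, scalings and variance models, a replicate block, left-out libraries and zeros as missing. Figures were drawn with matplotlib 3.10.9.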

Additional observations from a re-analysis of the deposited data

How the results depend on the processing

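The number of mitotic genes called lower was 51 under 16 of the 17 alternatives and 52 without DMSO replicate 2, and 0 were called higher under each. One of these has DMSO replicate 3 as its only control, so that the TGH libraries alone give its spread. In the main fit 26.3% of all genes were called lower and 28.9% higher. These shares are not given here for the alternatives. Of the 54 genes, 52 kept their direction and their side of the threshold under all 17, the exceptions being CENPK and SPC24. Leaving out single libraries gave 51 to 52 genes lower and a median from -0.72 to -0.68. The median of the list was -0.61 with a pseudocount of 5 and -0.73 with median scaling, which moved the median of all genes from 0.02 to -0.02. SPC24, not called under any, had -0.0185 with median scaling and -0.0719 with DMSO replicate 3 as the only control, and between -0.0202 and 0.0574 when single libraries were left out. With a pseudocount of 5 the log2 ratio CENPF/CENPE changed by -0.0492 in place of 0.18, and 1 gene in place of 7 was at least 2-fold lower. Low values are compressed by that pseudocount by its construction. The replicate block changed no call of the 54 genes (51 lower, median -0.70). The labels give replicate numbers in both groups but nothing that ties them. Deviations of same-numbered libraries from their group means correlated at 0.0088, 0.0544 and 0.229 for replicates 1 to 3, and DMSO replicates 1 and 2 correlated better with another number. The depth of a library is unknown, so it gives no measure of the precision of low genes such as CENPK. The SE of such a gene rests on 3 replicates a group, with variances drawn toward a trend over all genes tested.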

Other observations

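Among the 43 mitotic genes with a RefSeq promoter entry, those with TTTGAA or TTTAAA in the 300 bases had a median difference of -0.76 (n = 31, from -1.24 to -0.30), and those without either had -0.70 (n = 12, from -1.04 to 0.01). With a CCAAT box the median was -0.78 (n = 30) and without it -0.62 (n = 13). All 31 genes with a CHR were called lower, and so were 10 of the 12 without, all but CENPK and SPC24. Beside these counts stand 51 of all 54 genes of the list and 26.3% of all genes tested. The share called lower among other tested genes with a CHR was not computed. These medians are a description, with no test. CCNA2 and MYBL2, among the larger falls, had no TTTGAA or TTTAAA in this window, which says only that these letters are absent there. Of 42 neighbouring CCAAT pairs in the promoters of the list, 7 in 6 genes were spaced 30 to 35 bases apart. Such spacing was not counted in the promoters of other genes, so the count shows nothing particular to this list.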
